A study of Mus musculus with 2 samples.

Results

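The Ms4a family, for membrane-spanning 4-domains subfamily A, was followed across the leukocytes of a mouse model of intrahepatic cholangiocarcinoma, which arises from bile duct cells inside the liver. The members were the 8 genes Ms4a1, Ms4a4a, Ms4a4b, Ms4a4c, Ms4a6b, Ms4a6c, Ms4a6d and Ms4a7, found by symbol among the 31253 genes of the count tables. All 8 were present, and the tables hold 13 further genes with an Ms4a symbol. Both groups were C57BL/6 mice in which transposon vectors for Myr-AKT and YAPS127A, active forms of the kinase AKT and the coactivator YAP, had been brought to the liver by hydrodynamic injection. The NAV group then received NAV2729, an inhibitor of ARF GTPase activation, at 30 mg/kg every other day for 7 days, starting 7 days after the injection. The MOCK group was untreated or mock-treated over the same days. Cells sorted for CD45, the common leukocyte surface marker, were pooled into 1 BD Rhapsody library for each group, a platform that counts transcripts as unique molecular identifiers (UMIs). The number of tumours per pool is uncertain, since the design text gives 6 and the protocol 3 paired tumours, and the ages of the mice are not given in the sources used here.

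Family members are small proteins that cross the membrane several times and sit in the plasma membrane or in internal membranes, where several of them associate with signalling receptors. The best known is CD20, the product of Ms4a1, which marks B cells and takes part in calcium signalling after antigen receptor engagement. Other members are known from T cells, monocytes and macrophages, and much of the family is used as a set of lineage markers for blood cells.

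The NAV library held 31454031 UMIs in 10465 barcodes and the MOCK library 45976676 in 10863. Of these, 9913 NAV and 10070 MOCK cells were analysed, with medians of 2019 and 3695 UMIs per cell, and the libraries shared 5 barcodes. Cells were clustered without the Ms4a genes and named from lists of marker genes without them. Names end in "-like" because no protein was measured. Each class named here showed the markers of its label, with at least 1 marker among the 10 leading genes of a cluster or at least 60% of its list raised. Their sizes were 1179 NAV and 1020 MOCK B-like, 470 and 267 T-like, 1054 and 1435 classical monocyte-like, 659 and 316 nonclassical monocyte-like, 1357 and 2303 macrophage-like, 255 and 945 Kupffer-like, 105 and 77 cDC1-like, 504 and 365 cDC2-like, 205 and 92 NK-like, 111 and 136 gd T/T17-like, 2990 and 1951 neutrophil-like and 157 and 299 cycling cells. The 10% of genes with the highest GC content in their last 500 bases had median log2 ratios of NAV over MOCK between -0.38 and -0.01 in these 12 classes, and no member was among them. Levels are CPM, the UMIs of a gene over all UMIs of the class in that library, scaled to a total of 1e6. With 1 library per group nothing was tested between groups, and no difference has a replicate check. Brackets give exact 95% intervals, which cover counting error only. A log2 ratio is of CPM, NAV over MOCK, and is called past the fold at 1.0 or more in either direction with at least 20 UMIs over both libraries.

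In the GENCODE annotation of GRCm38, the assembly also called mm10, the 8 genes lie together on chromosome 19 within 355.2 kb, at chr19:11249675-11604849. They are protein-coding genes, and 11 genes of the family fall in that stretch. Ms4a1 and Ms4a7 at its low end and Ms4a6d at its high end are on the minus strand. Between them Ms4a4a, Ms4a4c, Ms4a4b, Ms4a6c and Ms4a6b follow each other on the plus strand. Ms4a4b, highest in T-like cells, stood between Ms4a4c and Ms4a6c, both highest in classical monocyte-like cells.

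**Figure D1:**
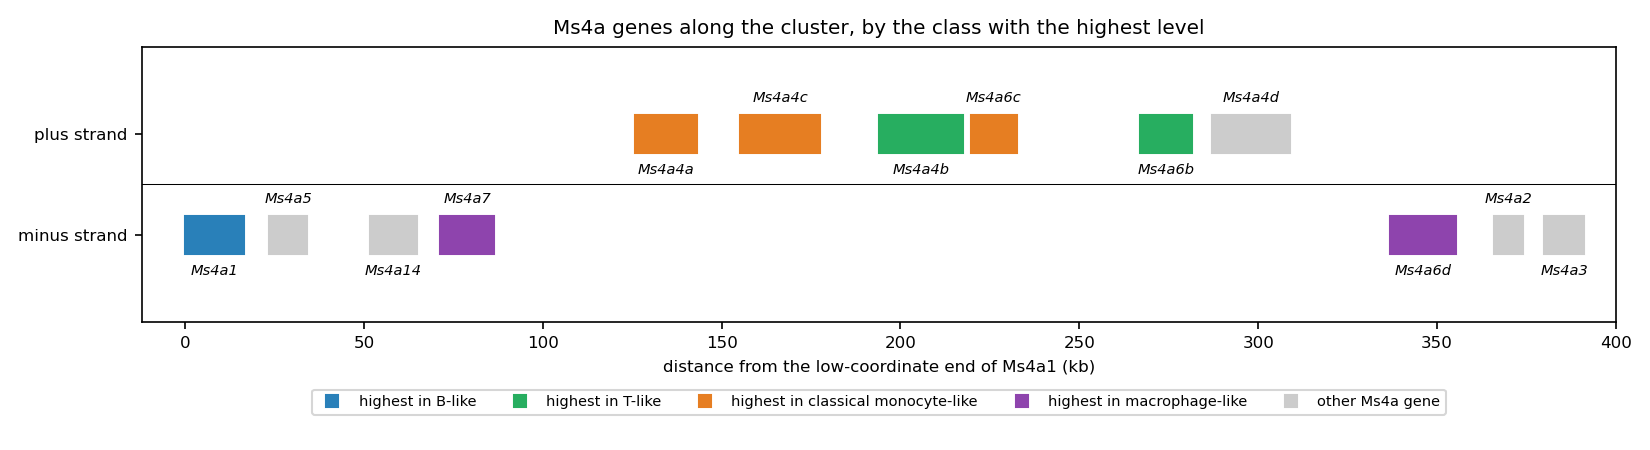
Map of the Ms4a genes on chromosome 19, as distance in kb from the low-coordinate end of Ms4a1, with plus-strand genes above and minus-strand genes below. Colours give the class with the highest mean CPM over both libraries for each of the 8 members, and grey marks other Ms4a genes.

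Some members are close copies. The coding sequences of Ms4a4b and Ms4a4c were 91.7% identical, those of Ms4a6b and Ms4a6d 80.6%, of Ms4a6b and Ms4a6c 75.7%, and of Ms4a6c and Ms4a6d 69.7%, whereas no other pair exceeded 62.6%. In the last 500 bases of the transcripts the identity of Ms4a4b and Ms4a4c was 52.9%, within the range of 48.3% to 53.8% over all pairs, with a longest shared run of 127 bases anywhere in the transcripts. How reads shared by these copies were counted is not given in the sources used here, so values of Ms4a4b and Ms4a4c, and of the Ms4a6 genes, carry that uncertainty.

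Of these close pairs, Ms4a4b with Ms4a4c and Ms4a6b with Ms4a6c were also alike around their start sites. Pairs with Ms4a6d could not be compared. RefSeq promoter windows on GRCm38.p6, 250 bases before to 50 after each start, were held for 6 of the 8 members, all but Ms4a1 and Ms4a6d. Those of Ms4a4b and Ms4a4c aligned over 297 columns with 76.1% identity, and those of Ms4a6b and Ms4a6c over 233 columns with 82.4%, while every other pair aligned over at most 78 columns. The aligned stretches are shown because Ms4a4b and Ms4a4c were read mainly in different cells, and Ms4a6b and Ms4a6c are the other pair with a long alignment. Counted from the start site, the Ms4a6b stretch runs from -248 to -24 and the Ms4a6c stretch from -175 to 49. The start sites of Ms4a6b and Ms4a6c thus do not line up. Capitals mark the bases that differ from the partner or face a gap in it, 60 in each of the first pair and 33 in each of the second. All lie on the plus strand of chromosome 19, in the order Ms4a4b chr19:11443318-11443603, Ms4a4c chr19:11407425-11407710, Ms4a6b chr19:11518311-11518535 and Ms4a6c chr19:11469193-11469417.
Ms4a4b: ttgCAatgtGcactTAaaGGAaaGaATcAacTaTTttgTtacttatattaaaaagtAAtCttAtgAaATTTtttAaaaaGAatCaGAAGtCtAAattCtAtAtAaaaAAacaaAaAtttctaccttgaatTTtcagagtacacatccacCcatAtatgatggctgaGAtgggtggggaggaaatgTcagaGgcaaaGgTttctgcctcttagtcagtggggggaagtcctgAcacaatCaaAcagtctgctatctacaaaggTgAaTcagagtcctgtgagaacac
Ms4a4c: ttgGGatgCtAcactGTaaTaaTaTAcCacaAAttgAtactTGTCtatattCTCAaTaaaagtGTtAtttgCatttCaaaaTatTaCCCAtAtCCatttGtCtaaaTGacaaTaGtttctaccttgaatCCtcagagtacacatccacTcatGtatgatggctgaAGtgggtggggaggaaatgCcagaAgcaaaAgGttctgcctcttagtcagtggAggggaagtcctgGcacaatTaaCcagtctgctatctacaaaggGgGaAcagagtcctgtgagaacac
Ms4a6b: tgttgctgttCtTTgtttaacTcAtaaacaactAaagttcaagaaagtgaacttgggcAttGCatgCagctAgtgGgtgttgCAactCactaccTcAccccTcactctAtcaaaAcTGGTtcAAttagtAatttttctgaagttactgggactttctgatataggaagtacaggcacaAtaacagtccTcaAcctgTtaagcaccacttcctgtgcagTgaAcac
Ms4a6c: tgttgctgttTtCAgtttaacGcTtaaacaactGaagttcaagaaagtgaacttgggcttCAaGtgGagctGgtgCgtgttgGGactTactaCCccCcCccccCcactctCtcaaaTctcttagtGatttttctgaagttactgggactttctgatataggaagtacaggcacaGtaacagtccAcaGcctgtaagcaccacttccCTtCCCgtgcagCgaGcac

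Short motifs of blood cell transcription factors were searched on both strands of the promoter windows. GAGGAAG, a core bound by PU.1, was in 0 of the 7 windows of the 6 members, against 13.6% of 32851 RefSeq promoters. CCCNNGGG, a core of EBF1 sites, was also in 0, against 13.7% of all promoters. Ms4a1, the member read in B-like cells, had no window and was not searched. AANNGAAA, a core of interferon regulatory factor sites, was in 3 windows, 1 each of Ms4a4b, Ms4a6c and Ms4a7, against 23.9% of all promoters. A match describes letters in a window and is not a binding site.

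Ms4a1 was read almost only in B-like cells. Its level there was 609 CPM in NAV (573 to 647, 1079 UMIs) and 556 CPM in MOCK (517 to 597, 765 UMIs). In each of the other 11 classes it stood at 3.30 CPM or below in NAV and 2.87 or below in MOCK, each from at most 7 UMIs. B-like cells held 99.0% of its UMIs in the NAV library and 95.6% in MOCK. The log2 ratio within B-like cells was 0.13 (-0.0038 to 0.27), an interval that holds 0. The 8 plasma cell markers summed to 2706.5 CPM in NAV and 119 in MOCK in the same B-like cells, and their part in that ratio was not tested. With every cell reduced at random to 1000 UMIs (thinned below; 188 NAV and 199 MOCK B-like cells were shallower and dropped), 40.7% of NAV (37.6 to 43.8) and 39.8% of MOCK B-like cells (36.5 to 43.3) had a Ms4a1 UMI, and unthinned shares were 49.4% and 46.8%. Neutrophil-like cells, which should lack it, had 0 of 2139 in NAV, for which a limit of 3 counts allows a share of cells with a UMI of up to 0.140%, and 1 of 1576 in MOCK, at median depths of 1167.5 and 1296 UMIs against 1372 and 1270.5 in B-like cells. Ms4a1 overlaps an antisense gene, 4930526L06Rik, with 33 UMIs in NAV and 41 in MOCK over all cells, and without knowledge of the counting strand reads of both cannot be told apart.

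Genes named here whose proteins work with CD20 or beside it on B cells had ratios of both signs. Cd79b, a chain of the antigen receptor complex, was at 305 CPM in NAV and 250.1 in MOCK B-like cells, a log2 ratio of 0.29 (0.09 to 0.49), and its partner chain Cd79a at 1793 and 2292 (-0.35, -0.43 to -0.28). Cr2, the complement receptor CD21, was at 170 CPM in NAV and 158 in MOCK (0.11, -0.15 to 0.37), and Cd81, a tetraspanin, at 115 and 97.4 (0.23, -0.09 to 0.56). None of these genes was past the fold.

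Ms4a4b, whose mouse product is known to enhance costimulation through GITR in T cells, was highest in T-like and NK-like cells. T-like cells had 809 CPM in NAV (757 to 864) and 829 in MOCK (759 to 903), a ratio of -0.03 (-0.19 to 0.12). Within them CD4 T-like cells had 994 CPM in NAV and 1144 in MOCK (-0.20, -0.45 to 0.04), and CD8 T-like cells 817 and 832 (-0.03, -0.25 to 0.20). NK-like cells, innate cytotoxic lymphocytes, were higher in NAV, at 631 CPM (565 to 703, 331 UMIs) against 464 in MOCK (386 to 553, 124 UMIs), a ratio of 0.44 (0.14 to 0.75). Thinned shares of NK-like cells with a UMI were 42.9% in NAV (35.8 to 50.3) and 31.4% in MOCK (21.8 to 42.3), whose intervals overlap. Unthinned shares were 67.3% and 54.3%. The 9 NK markers summed to 7546 CPM in NAV and 5556 in MOCK in the same cells, a ratio of 0.44, and the part of that in the Ms4a4b value was not tested.

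Innate-like gd T/T17-like cells, a source of IL-17, had 15.1 CPM in NAV (5 UMIs) and 8.60 in MOCK (3 UMIs), which lies far below the T-like intervals in both libraries. Among CD4 T-like clusters the levels differed several-fold: the cluster led by Trib2, Myo6 and Tcf7, a factor of naive and memory T cells, had 2000.1 CPM in NAV from 24 cells and 1621 in MOCK from 53 cells, and that led by Tnfsf8, Cd28 and Icos had 562 in NAV and 506 in MOCK. The cluster led by Lef1 and Dusp10 had 1247 CPM in NAV from 63 cells and 2228 in MOCK from 7 cells. Tnfrsf18, which encodes GITR, was at 58.6 CPM in NAV and 228 in MOCK T-like cells (65 and 144 UMIs), a ratio of -1.96 (-2.41 to -1.53), past the fold on the lower side like 4.62% of all genes there.

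Classical monocyte-like cells had 19.5 CPM of Ms4a4b in NAV and 19.7 in MOCK (-0.01, -0.42 to 0.38). Nonclassical monocyte-like cells were past the fold, at 4.86 CPM in NAV and 13.2 in MOCK, from 12 and 19 UMIs (-1.45, -2.62 to -0.33). The ratio was -0.55 with doublets kept, short of the fold, and -3.12 with each library clustered alone. In that last setting the class held other cells, 346 in NAV and 737 in MOCK, against 659 and 316. In the main nonclassical monocyte-like cells the 12 T markers summed to 4.45 CPM in NAV and 6.26 in MOCK. Of these, 5 were at 0 in each library. The 8 classical monocyte markers summed to 5280.2 and 8892 there, and the part of both lists in the value was not tested. The cycling class was past the fold in the other direction, at 79.9 CPM in NAV and 35.9 in MOCK (84 UMIs each, 1.15, 0.70 to 1.61). In that class the 12 T markers summed to 803 CPM in NAV and 278 in MOCK, with none at 0. It is made of 2 clusters, and neither was past the fold: the smaller one, led by Pclaf, Top2a and Rrm2, had 538 CPM in NAV and 455 in MOCK (81 and 69 UMIs, 0.24, -0.24 to 0.73), and the larger one had 3 and 15 UMIs (-1.04, -3.47 to 0.78), under the minimum of 20. With the clusters weighted alike in both libraries the class ratio was 0.12, and it was 0.93 where each cell counted equally, 0.63 with doublets kept and 0.50 with each library clustered alone.

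Ms4a4c, the close copy of Ms4a4b, had its highest levels in both monocyte classes and in cDC2-like and B-like cells. Macrophage-like cells, at a lower level, held more of its UMIs than cDC2-like or B-like cells in each library. Classical monocyte-like cells were highest, with 461 CPM in NAV (442 to 482, 2037 UMIs) and 327 in MOCK (313 to 340, 2274 UMIs), a ratio of 0.50 (0.41 to 0.59). Nonclassical monocyte-like cells had 240 CPM in NAV and 182 in MOCK (0.40, 0.19 to 0.62), and cDC2-like cells, conventional dendritic cells that present antigen mainly to CD4 T cells, at 219 in NAV and 162 in MOCK (0.43, 0.22 to 0.64). The intervals of these last 2 classes overlapped in each library. B-like cells had 190 CPM in NAV and 220 in MOCK (-0.21, -0.44 to 0.02), which placed them below both of these classes in NAV and above them in MOCK. The B-like interval overlapped that of cDC2-like cells in NAV and that of nonclassical monocyte-like cells in MOCK. Macrophage-like cells were lower in NAV, at 97.6 CPM against 116 in MOCK (645 and 1453 UMIs), a ratio of -0.25 (-0.38 to -0.11). That direction did not hold in every setting: the ratio was -0.06 (-0.21 to 0.10) without the cluster led by Arg1 and Spp1, 0.07 with the Ms4a genes left in the clustering, 0.04 with lineages clustered at resolution 2.0 and 0.74 with each library clustered alone. Clustering the libraries alone also gave -0.85 in nonclassical monocyte-like cells, a class that held other cells in that setting.

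Both clusters of classical monocyte-like cells shared the direction of Ms4a4c. The cluster led by Vcan and Ly6c2, genes of classical monocytes, had 530 CPM in NAV and 346 in MOCK (0.62, 0.50 to 0.73), and that led by Ccr2 and Mmp19 had 382 and 308 (0.31, 0.17 to 0.44). The first held 539 of the NAV and 622 of the MOCK cells of the class and the second 515 and 813, so a different cluster was larger in each library. Thinned shares of classical monocyte-like cells with a UMI were 34.6% in NAV (31.7 to 37.6) and 25.3% in MOCK (23.1 to 27.7), and these intervals did not overlap, while unthinned shares were 73.1% and 67.3%. T-like cells had 29.8 CPM in NAV and 49.1 in MOCK, from 33 and 31 UMIs.

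**Figure D2:**
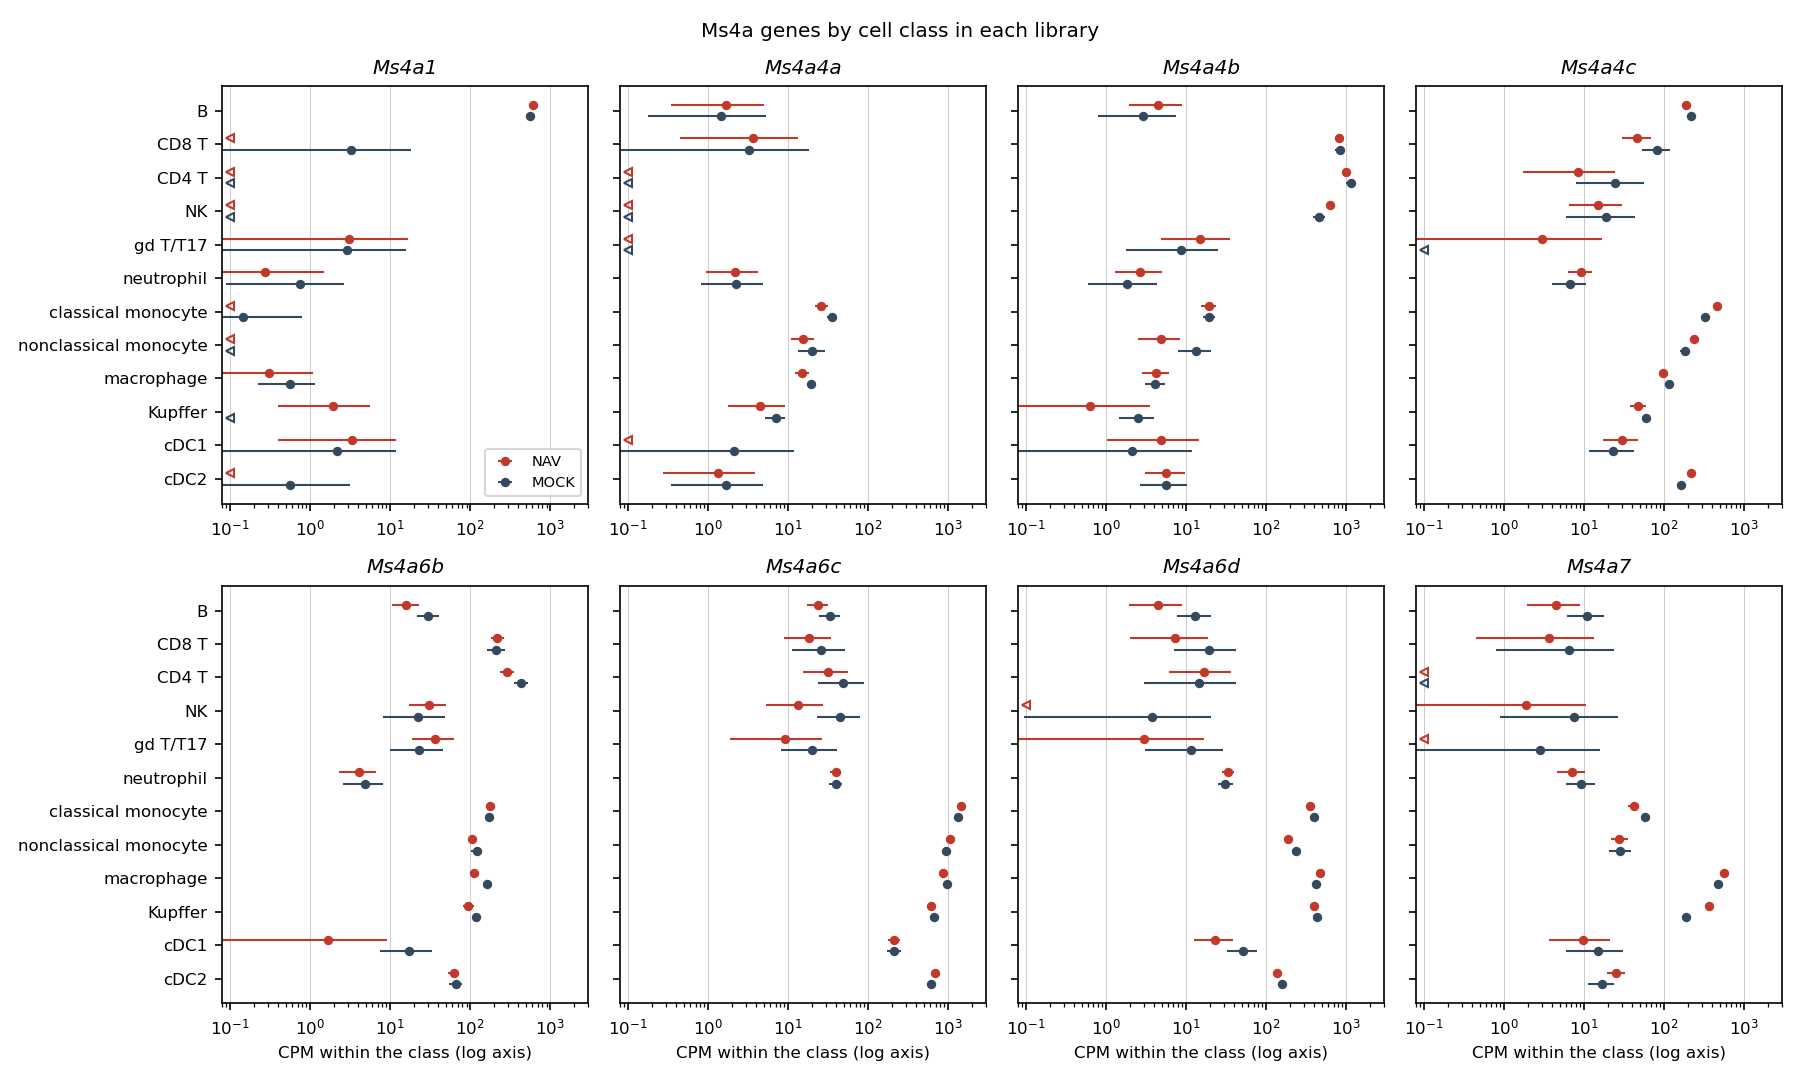
CPM of each member, log axis, in 12 classes, with CD8 T-like and CD4 T-like cells shown apart and the cycling class left out. Points are NAV (red, upper) and MOCK (dark, lower), bars are exact Poisson 95% intervals, and open triangles mark 0 UMIs. Ms4a1 stands out in B-like cells, Ms4a4b in CD8 T-like, CD4 T-like and NK-like cells, and Ms4a7 in macrophage-like and Kupffer-like cells.

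Ms4a6b was read in both lymphoid and myeloid cells. T-like cells were highest, with 220 CPM in NAV (193 to 249) and 257 in MOCK (219 to 299), a ratio of -0.22 (-0.51 to 0.07). CD4 T-like cells had 292 CPM in NAV and 435 in MOCK, from 103 and 89 UMIs, and the ratio of -0.58 (-0.9999 to -0.15) lay below 0. It was -0.0089 with the Ms4a genes left in the clustering, -0.21 under the stricter filter on cells, -1.16 with lineages clustered at resolution 2.0 and -1.78 with each library clustered alone. CD8 T-like cells had 219 and 212 (0.04, -0.40 to 0.50). Within the CD4 T-like class the cluster led by Trib2 had 520 CPM in NAV and 599 in MOCK (-0.20, -0.93 to 0.48), and that led by Tnfsf8 had 97.8 and 221. The cluster led by Lef1 and Dusp10 had 460 and 928. It held 63 NAV and 7 MOCK cells, and the Trib2 cluster 24 and 53, so the class was made up differently in each library. Classical monocyte-like cells had 178 CPM in NAV and 170 in MOCK (0.07, -0.06 to 0.20). Macrophage-like cells were lower in NAV, at 111 CPM (734 UMIs) against 161 in MOCK (2017 UMIs), a ratio of -0.53 (-0.66 to -0.41), and Kupffer-like cells too, at 94.998 against 117 (-0.30, -0.56 to -0.04). Ms4a6b overlaps an antisense gene, Gm19261, which had 0 UMIs in both libraries.

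The lower Ms4a6b level of NAV macrophage-like cells was uneven over clusters. Thinned shares of macrophage-like cells with a UMI were 8.96% in NAV (7.48 to 10.6) and 15.02% in MOCK (13.6 to 16.6), and unthinned shares 34.3% and 50.5%. The cluster led by Gpnmb and Fcrls had 77.1 CPM in NAV and 156 in MOCK (-1.02, -1.37 to -0.69), that led by Col14a1 and Pmepa1 had 125 and 162 (-0.37, -0.57 to -0.17), and that led by the heat shock genes Hspa1a and Hspa1b had 168 and 226 (-0.43, -0.71 to -0.16). The cluster led by Arg1, the enzyme arginase, and Spp1, the secreted protein osteopontin, had 91.3 CPM in NAV and 83.4 in MOCK (0.13, -0.20 to 0.47). That last cluster held 506 of the NAV and 252 of the MOCK macrophage-like cells, whereas the one led by Col14a1 held 418 and 1008. A different cluster was thus the largest of the class in each library.

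Ms4a6c, the partner of Ms4a6b at the promoter, was read throughout the mononuclear phagocytes. Its levels were 1463 CPM in NAV (1427 to 1499) and 1324 in MOCK (1297 to 1351) in classical monocyte-like cells, a ratio of 0.14 (0.10 to 0.19). Nonclassical monocyte-like cells had 1047 in NAV and 932 in MOCK (0.17, 0.07 to 0.26), and cDC2-like cells 684 and 618 (0.15, 0.03 to 0.26). Macrophage-like cells had 854 CPM in NAV and 962 in MOCK, below 0 at -0.17 (-0.22 to -0.13), and Kupffer-like cells 614 and 660 (-0.11, -0.21 to -0.0045). With each library clustered alone these directions turned, to -0.25 in nonclassical monocyte-like, 0.11 in macrophage-like and 0.07 in Kupffer-like cells. The labels then covered other cells, so the same cells were not compared. Nonclassical monocyte-like cells were 346 in NAV and 737 in MOCK, against 659 and 316. Macrophage-like cells were 1682 and 1633, against 1357 and 2303. Levels in cDC1-like cells, the dendritic class that cross-presents antigen to CD8 T cells, were 213 in NAV and 212 in MOCK. These ratios are small, with narrow intervals from 19403 NAV and 32794 MOCK UMIs of Ms4a6c over all cells. Thinned shares of classical monocyte-like cells with a UMI were 75.1% in NAV and 70.6% in MOCK (unthinned 96.5% and 97.2%), against 2.99% and 2.09% in neutrophil-like cells (3.51% and 3.13%).

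Ms4a6d, whose mouse protein is known to form a complex with the macrophage receptor VSIG4, had its highest levels in macrophage-like and Kupffer-like cells. Macrophage-like cells had 471 CPM in NAV (454 to 487) and 423 in MOCK (412 to 435), a ratio of 0.15 (0.09 to 0.22). Kupffer-like cells had 403 in NAV and 433 in MOCK (-0.11, -0.23 to 0.02), and the order of these classes was reversed between the libraries, with overlapping intervals in MOCK. Both monocyte classes were lower in NAV: classical monocyte-like cells at 360 CPM against 402 in MOCK (-0.16, -0.25 to -0.07), and nonclassical at 190 against 236 (-0.31, -0.52 to -0.11). cDC2-like cells had 139 in NAV and 160 in MOCK (-0.21, -0.44 to 0.03). Among macrophage-like clusters, 2 had intervals above 0. The cluster led by Arg1 and Spp1 had 599.6 CPM in NAV and 456 in MOCK (0.40, 0.26 to 0.53), and that led by Hspa1a had 435 and 382 (0.19, 0.0084 to 0.37). Without the Arg1 cluster the class had a ratio of -0.08 (-0.16 to 0.0014). The cluster led by Gpnmb and Fcrls had 391.9 in NAV and 478 in MOCK (-0.29, -0.44 to -0.13).

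Ms4a7, widely used as a marker of tissue macrophages, had the largest ratio among the pairs of member and class with over 100 UMIs in each library. Kupffer-like cells, the resident macrophages of liver sinusoids, had 365 CPM in NAV (335 to 396, 572 UMIs) and 190 in MOCK (180 to 201, 1279 UMIs), a log2 ratio of 0.94 (0.79 to 1.08), just short of the fold. Macrophage-like cells had 568 CPM in NAV (550 to 586) and 479 in MOCK (467 to 492), a ratio of 0.24 (0.18 to 0.30), and of -0.0065 with each library clustered alone. Classical monocyte-like cells were the reverse, at 41.9 in NAV and 58.8 in MOCK (-0.49, -0.75 to -0.23). That last ratio was 0.04 with the first clustering at resolution 2.0 and -1.23 with the Ms4a genes left in it. The 12 macrophage markers summed to 3256 CPM in NAV and 4469 in MOCK in the same monocytes, a ratio of -0.46 with 11 of 12 lower in NAV, and their part in the Ms4a7 value was not tested. The intervals of the libraries did not overlap in any of these 3 classes. Macrophage-like cells held 71.2% of all Ms4a7 UMIs in the NAV library and 64.5% in MOCK.

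Every macrophage-like cluster had an interval above 0 for Ms4a7. The ratios were 0.79 (0.60 to 0.98) in the cluster led by Arg1 and Spp1, at 383 CPM in NAV and 221 in MOCK; 0.41 (0.28 to 0.54) in that led by Hspa1a; 0.39 (0.29 to 0.48) in that led by Col14a1; and 0.21 (0.07 to 0.35) in that led by Gpnmb. The Arg1 cluster was low for Ms4a7 and larger in NAV. The class ratio of 0.24 was below that of 3 of its 4 clusters, and it was 0.40 without the Arg1 cluster. Thinned shares of cells with a UMI were 37.6% in NAV (35.0 to 40.3) and 34.2% in MOCK (32.2 to 36.1) for macrophage-like cells, and 24.4% (19.3 to 30.2) and 16.3% (14.0 to 18.9) for Kupffer-like cells. Unthinned they were 67.2% and 71.0%, and 55.7% and 47.4%. Neutrophil-like cells had thinned shares of 0.608% in NAV and 0.761% in MOCK.

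**Figure D3:**
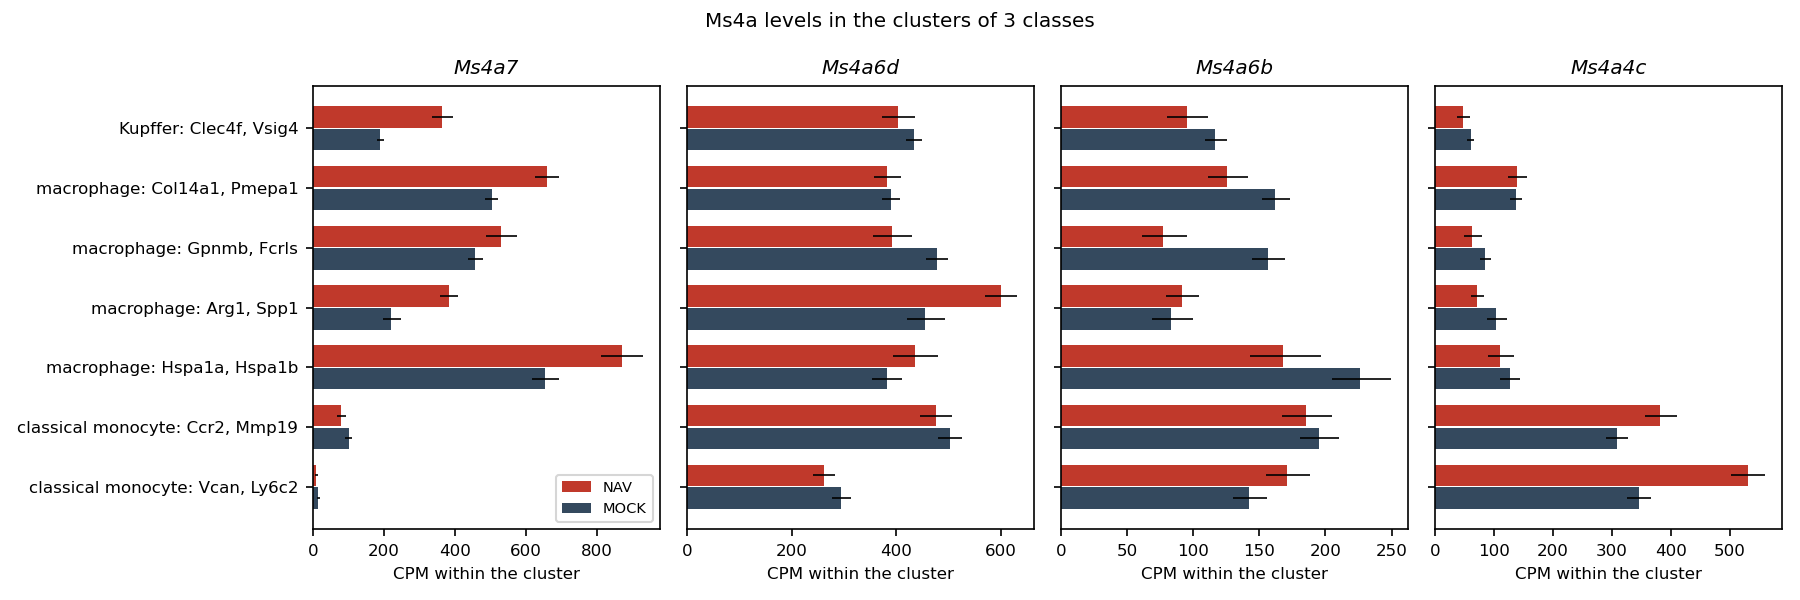
CPM of 4 members in the Kupffer-like cluster, the 4 macrophage-like clusters and the 2 classical monocyte-like clusters, each labelled by its first leading genes, in NAV (red, upper) and MOCK (dark, lower), with exact Poisson 95% intervals. For Ms4a7 the NAV bar is longer in the Kupffer-like and in all 4 macrophage-like clusters and shorter in both monocyte-like clusters.

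The Kupffer-like value was read beside the identity of the cells. All 10 Kupffer markers were detected in both libraries and summed to 7342 CPM in NAV and 7505 in MOCK, a ratio of -0.03, but single markers differed: Clec4f, a lectin of Kupffer cells, had 1775 CPM in NAV and 2508 in MOCK (-0.50), Cd5l, a secreted macrophage protein, 1779.5 and 1157 (0.62), Timd4, a receptor of long-resident macrophages, 203 and 190 (0.10), and Marco, a scavenger receptor, 133 and 187 (-0.50). The 12 macrophage markers summed to 21652 CPM in NAV and 20436 in MOCK, with none at 0, and the 8 classical monocyte markers to 168 and 161. Among Kupffer-like cells with a Timd4 UMI, 74 in NAV and 219 in MOCK, Ms4a7 was at 316 and 136 CPM, a ratio of 1.22 (0.91 to 1.52), and among those with none at 387 and 208 (0.89, 0.72 to 1.06). Cells with a Clec4f UMI, 184 and 758, had 238 and 124 CPM (0.94, 0.74 to 1.15). Levels in cells with a Clec4f UMI were below those of the whole class, 365 and 190 CPM, in both libraries. Cells with no Clec4f UMI were not read apart, and the part of cell identity in the class ratio was not tested. With each library clustered alone, 383 NAV and 715 MOCK cells were Kupffer-like, with 460.02 CPM in NAV and 106 in MOCK, and the Kupffer markers then summed to 5666 and 8994 CPM.

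Ms4a4a, a gene of macrophages whose human and mouse proteins act with the receptors TREM2 and Dectin-1, was sparse. Classical monocyte-like cells were highest, with 26.0 CPM in NAV (21.5 to 31.3, 115 UMIs) and 35.2 in MOCK (30.9 to 39.9, 245 UMIs), a ratio of -0.43 (-0.77 to -0.11). Macrophage-like cells had 15.1 in NAV and 19.5 in MOCK (-0.37, -0.72 to -0.02; -0.87 without the cluster led by Arg1 and Spp1 and 0.17 with each library clustered alone), nonclassical monocyte-like cells 15.4 and 20.2 (-0.39, -1.13 to 0.36), and Kupffer-like cells 4.46 and 6.99 from 7 and 47 UMIs (-0.65, -2.04 to 0.51). The cycling class was past the fold, from 2 UMIs in NAV and 28 in MOCK (-2.65, -5.77 to -0.67). The macrophage markers summed to 5188 CPM in NAV and 9325 in MOCK in that class, and their part was not tested. Thinned shares of classical monocyte-like cells with a UMI were 3.62% in NAV and 3.45% in MOCK, and unthinned shares 9.96% and 14.1%, which have opposite orders, so no order was read from them. Trem2 was lower in NAV, at 260 CPM against 399 in MOCK in macrophage-like cells (-0.62, -0.70 to -0.54), and past the fold in classical monocyte-like cells, at 71.4 against 146 (-1.03, -1.22 to -0.85), while its adaptor Tyrobp had 1519 and 1615 CPM in macrophage-like cells (-0.09).

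Over the 8 members and 12 classes, with T-like cells counted once, 62 of 96 pairs of gene and class had at least 20 UMIs. A pair could pass through 1 library alone, and no pair that passed had 0 UMIs in a library. Of the 62, 6 were past the fold, 1 higher and 5 lower in NAV, from 23 to 168 UMIs each. In B-like cells 0 of 6 members were higher and 2 lower, where 1.06% of 8740 genes were past the fold higher and 5.09% lower. These were Ms4a6d, from 8 UMIs in NAV and 18 in MOCK (-1.53), and Ms4a7, from 8 and 15 (-1.27, -2.72 to 0.06). The 12 macrophage markers summed to 251.2 CPM in NAV and 493 in MOCK in the same B-like cells, a ratio of -0.97 with none at 0, and their part in these values was not tested.

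Nonclassical monocyte-like cells had 0 of 7 members higher and 1 lower, Ms4a4b, where 2.84% of 8376 genes were higher and 5.27% lower. cDC1-like cells had 0 of 3 higher and 1 lower, Ms4a6d at 23.1 CPM in NAV and 51.3 in MOCK from 14 and 24 UMIs (-1.15, -2.21 to -0.14), where 3.71% of 5770 genes were higher and 6.53% lower. Macrophage markers summed to 538 CPM in NAV and 1331 in MOCK in the cDC1-like cells, and their part was not tested either. The Ms4a6d ratio there was -0.13 with equal weight per cell and -0.98 with lineages clustered at resolution 2.0, both short of the fold. With each library clustered alone 0 NAV and 69 MOCK cells were cDC1-like, so that setting gave no ratio. Thinned shares of cDC1-like cells with a Ms4a6d UMI were 2.94% in NAV (0.611 to 8.36) and 2.703% in MOCK (0.329 to 9.42), and unthinned shares 9.52% and 12.99%, which have opposite orders. The cycling class had 1 of 7 higher, Ms4a4b, which was past the fold in neither of its clusters, and 1 lower, Ms4a4a, where 3.14% of 9237 genes were higher and 8.03% lower.

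No member was past the fold in the other 8 classes. The shares of all genes past it there, higher and then lower, were 2.25% and 4.62% in T-like, 3.37% and 5.17% in gd T/T17-like and 4.48% and 4.45% in NK-like cells. They were 13.7% and 4.45% in neutrophil-like, 0.881% and 5.93% in classical monocyte-like and 1.69% and 6.17% in macrophage-like cells. In Kupffer-like cells they were 1.56% and 7.48%, and in cDC2-like cells 2.15% and 4.88%. Every called pair of member and class had at most 168 UMIs, and pairs with more differed by less than the fold.

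The direction of the members that passed was split within the mononuclear phagocytes. In classical monocyte-like cells 2 of 7 members, Ms4a4c and Ms4a6c, had intervals above 0 and 3, Ms4a4a, Ms4a6d and Ms4a7, below it, with a median ratio of -0.01 over the members and of -0.01 over all 9988 genes. In macrophage-like cells 2 of 7, Ms4a6d and Ms4a7, lay above 0 and 4, Ms4a4a, Ms4a4c, Ms4a6b and Ms4a6c, below it, with medians of -0.17 and 0.02. In Kupffer-like cells 1 of 6, Ms4a7, lay above 0 and 2, Ms4a6b and Ms4a6c, below it, with medians of -0.20 and -0.02. Neutrophil-like cells had 5 members with at least 20 UMIs, all at low levels, and a median of -0.0040 where that of all genes was 0.35.

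**Figure D4:**
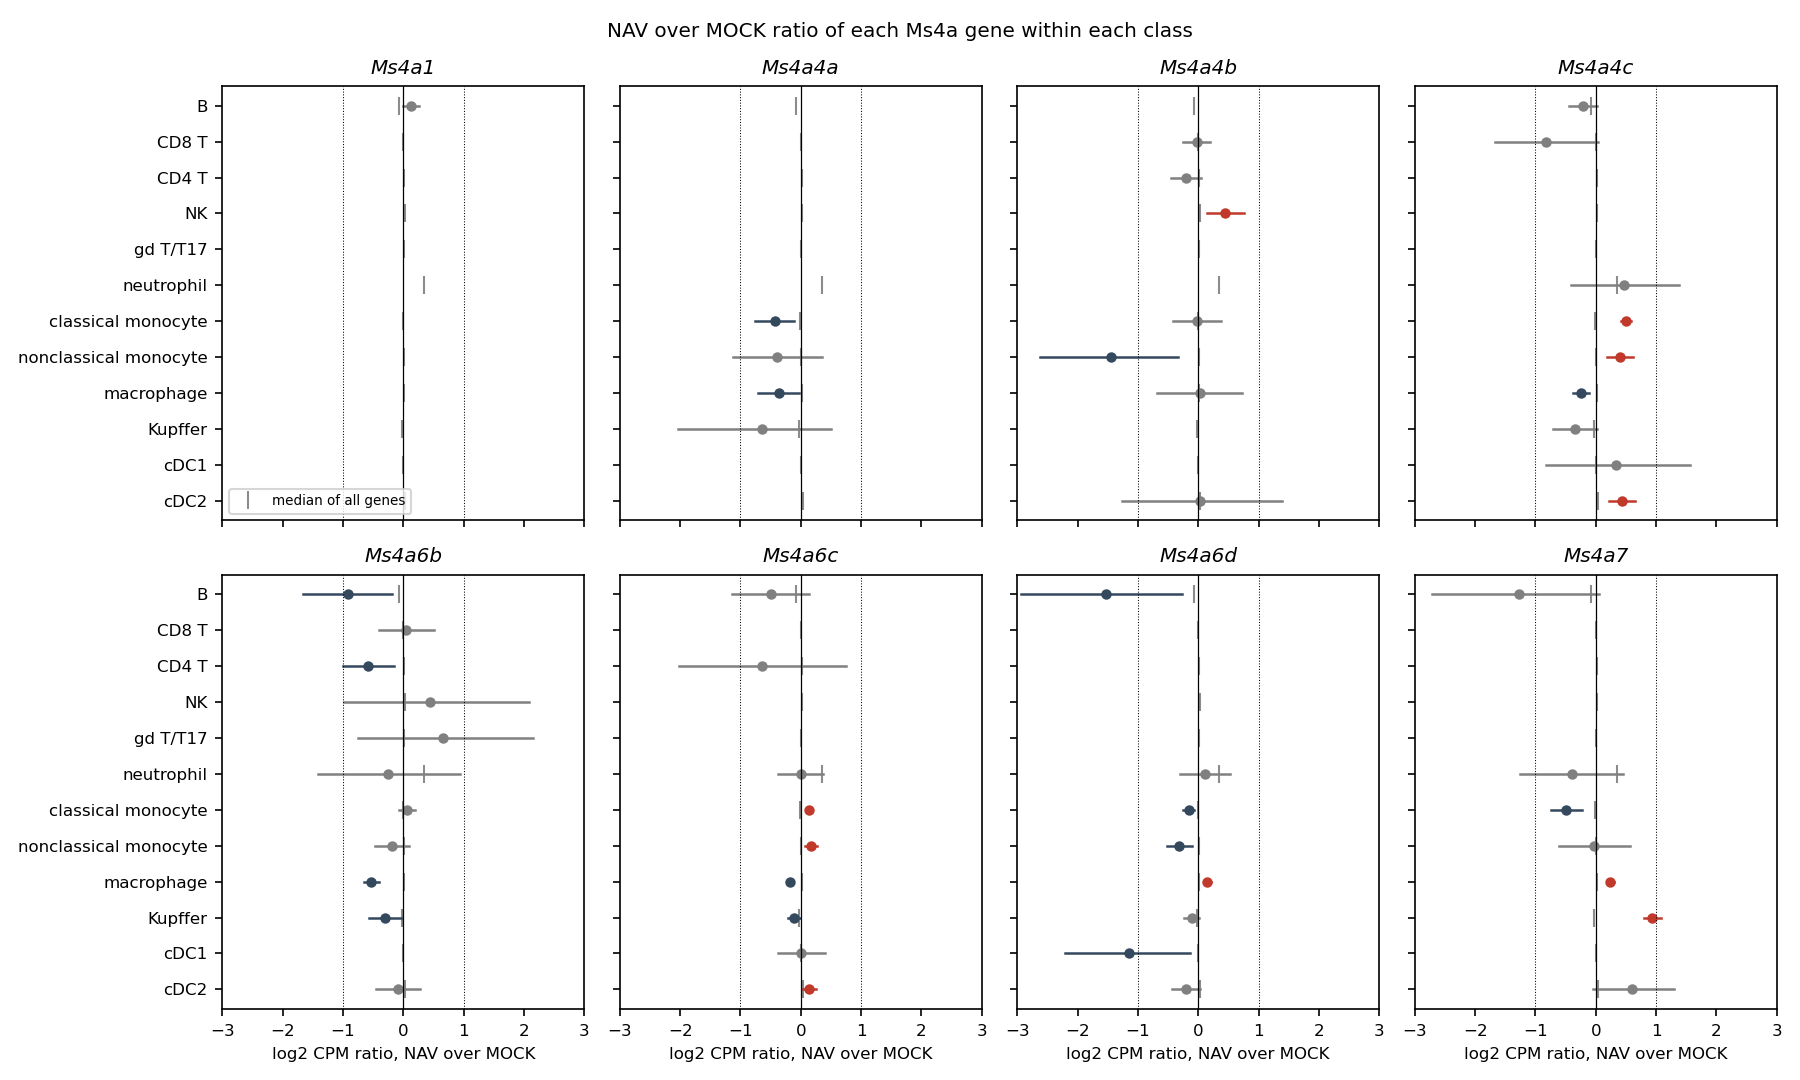
Log2 CPM ratio of NAV over MOCK for each member and class with at least 20 UMIs over both libraries. Bars are exact 95% intervals, red where they lie above 0, dark where below and grey where they hold 0; grey ticks give the median of all genes in the class, and dotted lines the fold of 1.0. Ms4a7 in Kupffer-like cells lies nearest the upper line.

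Ratios over whole libraries differed from those within classes. Ms4a4b was at 52.9 CPM in NAV and 24.7 in MOCK over all analysed cells (1.10, 0.99 to 1.22), and Ms4a1 at 37.8 and 19.4 (0.96, 0.83 to 1.10). With each class weighted by its share of the MOCK UMIs these ratios were 0.25 and 0.11. Moving only the class shares, with every level held at its MOCK value, gave 0.97 for Ms4a4b and 0.86 for Ms4a1. Ms4a7 was at 183 CPM in NAV and 226 in MOCK over all cells (-0.31, -0.36 to -0.26) and had a ratio of 0.27 with the classes weighted alike. Ms4a6d had -0.47 over all cells and -0.06 so weighted, and Ms4a6c -0.24 and -0.04. For Ms4a4c, which is spread over monocyte, macrophage, cDC2-like and B-like cells, both values were 0.18. For Ms4a6b they were -0.47 and -0.29, and for Ms4a4a -0.64 and -0.48.

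Plasmacytoid and mature dendritic classes had 42 MOCK cells each and are given by level alone. Ms4a6c was at 228 CPM in NAV (186 to 278, 100 UMIs) and 124 in MOCK (73.7 to 196, 18 UMIs) pDC-like cells, the class known for type I interferon, where each other member had at most 8 UMIs in a library. In mature DC-like cells, which carry antigen to lymph nodes, Ms4a6c was at 68.4 CPM in NAV and 160 in MOCK (23 and 29 UMIs). Its intervals of 43.4 to 103 and 107 to 230 did not overlap. Ms4a4c was at 59.5 and 77.2 CPM (20 and 14 UMIs), and Ms4a6d at 8.93 and 71.7 (3 and 13 UMIs). The Kupffer markers summed to 38.7 CPM in NAV and 336 in MOCK in the same mature DC-like cells, and their part in these values was not tested.

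The genes with the most similar pattern to each member were taken by Pearson's r of log2(CPM + 10) over 24 points, 12 classes in each library, among 6459 genes with at least 50 CPM at some point. These points share libraries and depths, and r is a description. Nearest to Ms4a1 was Cr2 (r = 0.996), followed by the B cell genes Fcmr and Fcer2a. Nearest to Ms4a4b was Klrc1, an NK receptor gene (0.968), then Itm2a and Cd27. Ms4a4a was nearest to Gab1 (0.961), F13a1 and Fn1, and Ms4a4c to Ddi2 (0.838), Hpse and Tifa. Ms4a6c was nearest to Stom (0.967), Myof and Ptpro, Ms4a6d to the Fc receptor gene Fcgr1 (0.976), P2ry6 and Zeb2os, and Ms4a7 to the complement receptor gene C3ar1 (0.961), Ntpcr and C1qb. Ms4a6b had no close match, with Nras first at 0.742. Of these, Fcmr, Fcer2a, F13a1, Fn1 and C1qb had served to name classes. Among the members Ms4a6c and Ms4a6d were most alike (0.949), then Ms4a6d and Ms4a7 (0.855), while the copies Ms4a4b and Ms4a4c had r = -0.20 and Ms4a6b and Ms4a6c 0.53.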

How the data were processed

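The deposited data were raw UMI counts per gene and cell, 1 matrix for each library, which the authors made from mouse reads on mm10 with fastp, STARsolo 2.7.10a and Cell Ranger named in the submitters' processing notes. How those counts treated reads shared between genes, and the strand setting, are not given in the sources used here. Barcodes with at least 500 UMIs, 200 genes and at most 20% mitochondrial UMIs were kept. The automatic doublet threshold of Scrublet marked 0 NAV barcodes and 1 MOCK barcode and so did not work. Cells with a score above 0.25 were removed instead (253 NAV, 261 MOCK), as were clusters with a median above 0.1 (275 and 439 cells).

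Counts were clustered with scanpy 1.11.5 and leidenalg 0.10.2 on 2000 variable genes without Ms4a genes, 30 principal components and resolution 1.0 (2.0 for T cells). Clusters were named from marker lists, with naming thresholds set after the data were seen, and 613 NAV and 751 MOCK cells stayed unnamed. UMIs were summed per class and library. Intervals are Poisson for CPM, Clopper-Pearson for shares and conditional for ratios. Only those for ratios were tried on simulated data, drawn as Poisson counts, so that trial does not cover spread between cells. Classes needed 50 cells per library. The members and lists were chosen with earlier results of these data known. The genes named are the members, listed relatives and partners, and for each member the 3 genes of most similar pattern. Of 31253 gene identifiers, 31107 matched GENCODE vM21. 1 listed partner gene is not reported here.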

Additional observations from a re-analysis of the deposited data

Results flagged for a closer look

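For 5 members the log2 ratio of NAV over MOCK lay above 0 in 1 class and below 0 in another, with both counting intervals free of 0, and none of these differences was tested, since each group is 1 library. Ms4a4b had 0.44 in NK-like and -1.45 in nonclassical monocyte-like cells, a difference of 1.89, with 12 NAV and 19 MOCK UMIs in the monocytes, where the ratio was -0.55 with doublets kept. Ms4a4c had 0.50 in classical monocyte-like and -0.25 in macrophage-like cells, a difference of 0.743. The macrophage-like value was -0.06 without the cluster led by Arg1 and Spp1 and 0.74 with each library clustered alone. Ms4a6c had 0.17 in nonclassical monocyte-like and -0.17 in macrophage-like cells, a difference of 0.339. With each library clustered alone, which changed the cells of both classes, these were -0.25 and 0.11. Ms4a6d had 0.15 in macrophage-like and -1.53 in B-like cells, a difference of 1.69, with 8 NAV and 18 MOCK UMIs in B-like cells. Ms4a7 had 0.94 in Kupffer-like and -0.49 in classical monocyte-like cells, a difference of 1.43. The monocyte value was 0.04 with the first clustering at resolution 2.0, and the macrophage markers summed over the same monocytes had a ratio of -0.46.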

How the results depend on the processing

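No paired analysis was possible because each group is 1 pooled library. For 9 main log2 ratios, 93 alternative values were computed, of which 78 stayed within the counting interval, 15 moved outside it, and 88 kept their sign. For 59 further ratios, 516 of 578 values stayed and 62 moved, and 508 kept their sign. Ratios from few UMIs have wide intervals, so staying within them says little. Some of these values could not move, since the finer lineage clustering left B-like and neutrophil-like cells as they were. Clustering the libraries alone changed which cells carried several of the labels, so its values are not of the same cells. With doublets kept, Ms4a4b in T-like cells had 0.36. With Ms4a genes left in the clustering and with resolution 2.0, Ms4a4c in classical monocyte-like cells had 0.64 and 0.61, and Ms4a6c 0.20 and 0.19. Ms4a6d in macrophage-like cells had 0.0358 with clusters weighted alike and -0.0795 without the cluster led by Arg1 and Spp1. Ms4a7 in macrophage-like cells had 0.17 with Ms4a genes left in, 0.39 with clusters weighted alike, -0.0065 with libraries clustered alone and 0.40 without that cluster. Ms4a7 in Kupffer-like cells had 1.12 with Ms4a genes left in and 1.22 among cells with a Timd4 UMI. It had 2.12 with libraries clustered alone and 1.10 under the stricter cell filter. All of these are past the fold that its main value of 0.94 missed. Over its 12 alternative settings the ratio ran from 0.82, short of the fold, to 2.12. The cause of these shifts was not tested. The Timd4, Clec4f and Arg1 subsets and the finer lineage clustering were chosen after seeing the data. Depth limits Ms4a4a and the members that were low in lymphoid classes, where few UMIs were counted. It limits less Ms4a4c in B-like cells, with 337 NAV and 302 MOCK UMIs, and Ms4a4b in NK-like cells, with 331 and 124.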

Other observations

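Ms4a8a, a family gene outside the 8 members, was at 169 CPM in NAV and 238 in MOCK classical monocyte-like cells (-0.49, -0.62 to -0.37), at 80.9 and 162 in nonclassical monocyte-like cells (-1.002, -1.28 to -0.72), just past the fold on the lower side, and at 70.1 and 124 in Kupffer-like cells (-0.82, -1.12 to -0.53). Ms4a14 was at 26.95 CPM in NAV and 29.2 in MOCK macrophage-like cells (-0.11, -0.38 to 0.15). Tmem176a and Tmem176b, of the same superfamily and known as intracellular ion channels of dendritic cells and RORgt-positive lymphocytes, were highest in gd T/T17-like cells, where Tmem176a had 1381 CPM in NAV and 1554 in MOCK (-0.17, -0.35 to 0.01) and Tmem176b 439 and 530.4 (-0.27, -0.60 to 0.05). In cDC2-like cells Tmem176a had 383 CPM in NAV and 390 in MOCK (-0.02, -0.17 to 0.12).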
